A study of Homo sapiens with 8 samples.

Results

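H3K27ac regions on human chromosome 16 were described in 2 lines derived from MIA PaCa-2, an established cell line from a human pancreatic carcinoma. Every merged region whose deposited chromosome was 16 was taken, which gave 751 of 18678 regions. The members were chosen by the chromosome of peaks that were called on these H3K27ac signals, and that they carry a peak is no finding. A merged region is an interval in which H3K27ac peaks of the lines are joined wherever they share at least 1 bp. The line MP2_HDAC1_OE carries an sgRNA that activates *HDAC1* in place, and the line MP2_NTC carries a non-targeting sgRNA. The study names lentiSAMv2 and the MS2-p65-HSF1 activator as the CRISPR activation components for making stable activation lines. It does not state outright that MP2_NTC carries them, and the level of the activator in either line is not given. The labels do not say whether either line grew from 1 clone. Each line had 2 H3K27ac samples, made with the antibody Abcam ab4729, and 2 control samples made without an antibody.

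The authors deposited 1 H3K27ac peak list per line, pooled over both samples and filtered by a test of reproducibility (IDR). The sources used here do not say whether each listed peak passed that test between the 2 samples. With 1 list per line there is no replicate error and no test, so counts and ranks below describe these lists, and the 95% Wilson intervals cover counting error alone. The lists hold no read counts, so the sequencing depth behind a peak is unknown. The lists have 25045 peaks in MP2_HDAC1_OE and 22569 in MP2_NTC, of which 1041 and 910 lie on chromosome 16. Each peak has a signal, a positive value from the authors' peak calling whose scaling between the lists is not known. Signals are therefore given as listed, and the lines are compared by percentile, the percent of all peaks of a list with a lower signal. Among cell type markers, a region lay at 3 of 5 epithelial genes (*KRT8*, *KRT18* and *KRT19*, but not *EPCAM* or *CDH1*). It lay at 3 of 4 mesenchymal genes (*VIM*, *ZEB1* and *CD44*, but not *FN1*). At markers of other cell types, among them *PTPRC* (leukocytes), *ALB* (hepatocytes) and *INS* (beta cells), the count was 0 of 7. Over all protein-coding genes 48.8% had a region, so counts this small do not identify the cells. The region was shared at the 3 mesenchymal genes and at *KRT18*, unique to MP2_HDAC1_OE at *KRT8*, and at *KRT19* both lines had unique regions with none shared.

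H3K27ac, acetylation of lysine 27 on histone H3, is found at active promoters and enhancers, where it is placed chiefly by the acetyltransferases CREBBP and EP300 and removed by histone deacetylases such as HDAC1. Chromosome 16 is gene dense near the ends of both arms and in a block of the short arm near the centromere, and it has long stretches with few genes. Its long arm carries the metallothionein cluster, whose small cysteine-rich proteins bind zinc, copper and cadmium, and the *IRX3*, *IRX5* and *IRX6* cluster of homeobox genes. Its short arm carries *CREBBP* itself, the alpha-globin cluster and a block of genes from *SPN* to *CORO1A* that is recurrently deleted or duplicated in people.

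A set of 9 promoters carries the comparisons below and is printed first, as RefSeq (GRCh38.p14) gives them, each running from 250 bases before a gene's start to 50 bases after it, 5′ to 3′ on the strand of the gene. The metallothionein promoters show a gene with a shared region, a gene with regions of MP2_HDAC1_OE alone and a gene with no region in either line. They are *MT2A* (chr16:56608334-56608633, plus strand), *MT1X* (chr16:56682220-56682519, plus strand) and *MT1H* (chr16:56669564-56669863, plus strand). Capitals mark the core of the metal response element, the site of the zinc sensor MTF1, searched as TGCACNC or TGCGCNC on both strands.
MT2A: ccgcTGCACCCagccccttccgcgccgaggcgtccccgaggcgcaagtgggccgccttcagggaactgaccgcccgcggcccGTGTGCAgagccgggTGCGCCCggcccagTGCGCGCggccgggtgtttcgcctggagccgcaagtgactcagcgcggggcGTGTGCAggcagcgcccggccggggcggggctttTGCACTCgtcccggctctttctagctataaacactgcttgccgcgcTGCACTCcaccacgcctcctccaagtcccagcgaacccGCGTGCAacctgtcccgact
MT1X: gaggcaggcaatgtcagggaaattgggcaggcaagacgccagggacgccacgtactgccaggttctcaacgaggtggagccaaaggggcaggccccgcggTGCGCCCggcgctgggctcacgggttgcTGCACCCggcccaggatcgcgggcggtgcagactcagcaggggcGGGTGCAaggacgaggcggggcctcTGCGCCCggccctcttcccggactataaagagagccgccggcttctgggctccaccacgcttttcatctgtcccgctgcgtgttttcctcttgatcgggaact
MT1H: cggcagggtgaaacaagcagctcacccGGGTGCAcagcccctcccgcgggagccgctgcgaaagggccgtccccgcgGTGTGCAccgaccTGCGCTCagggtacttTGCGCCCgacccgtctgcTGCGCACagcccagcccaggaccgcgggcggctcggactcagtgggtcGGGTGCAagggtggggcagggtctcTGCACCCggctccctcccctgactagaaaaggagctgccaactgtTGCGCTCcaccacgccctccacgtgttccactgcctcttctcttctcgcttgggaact

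The core occurred 8 times in the *MT2A* promoter, 4 times in that of *MT1X* and 8 times in that of *MT1H*. It is a short word that 33.8% of all 22183 protein-coding promoters of the table hold at least once. A match describes the letters and is not a bound site. The *MT1H* promoter matched as often as that of *MT2A*, and no peak of either list lay at *MT1H*.

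The other promoters are those of genes described below for a strong region, a large difference in rank or, at *BRD7*, a run of unique regions. They are *ZNF688* (chr16:30571665-30571964, minus strand, a strong shared region), *BRD7* (chr16:50368939-50369238, minus strand) and *RABEP2* (chr16:28925189-28925488, minus strand), both with regions of MP2_HDAC1_OE alone, *N4BP1* (chr16:48610131-48610430, minus strand, a region of MP2_NTC alone), *UNKL* (chr16:1379603-1379902, minus strand, shared and ranked far higher in MP2_NTC) and *CES2* (chr16:66934221-66934520, plus strand, shared and ranked far higher in MP2_HDAC1_OE). Capitals mark the GC box GGGCGG, bound by SP family factors, and the ETS core CCGGAAG, each on both strands.
ZNF688: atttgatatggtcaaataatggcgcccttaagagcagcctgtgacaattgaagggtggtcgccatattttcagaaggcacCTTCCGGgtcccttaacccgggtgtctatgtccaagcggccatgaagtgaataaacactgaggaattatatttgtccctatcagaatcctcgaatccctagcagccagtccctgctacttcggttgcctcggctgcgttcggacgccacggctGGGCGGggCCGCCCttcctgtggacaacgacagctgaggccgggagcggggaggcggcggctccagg
BRD7: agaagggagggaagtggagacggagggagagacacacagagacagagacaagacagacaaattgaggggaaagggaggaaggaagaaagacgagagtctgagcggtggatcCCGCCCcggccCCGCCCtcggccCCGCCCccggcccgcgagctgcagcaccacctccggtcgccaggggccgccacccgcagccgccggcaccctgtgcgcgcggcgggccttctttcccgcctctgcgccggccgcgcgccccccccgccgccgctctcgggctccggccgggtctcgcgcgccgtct
RABEP2: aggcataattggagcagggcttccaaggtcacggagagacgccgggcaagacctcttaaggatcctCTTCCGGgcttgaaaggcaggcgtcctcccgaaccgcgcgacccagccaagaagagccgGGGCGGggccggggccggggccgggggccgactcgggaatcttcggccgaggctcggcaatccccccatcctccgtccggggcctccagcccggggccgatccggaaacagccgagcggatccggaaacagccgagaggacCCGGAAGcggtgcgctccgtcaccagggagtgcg
N4BP1: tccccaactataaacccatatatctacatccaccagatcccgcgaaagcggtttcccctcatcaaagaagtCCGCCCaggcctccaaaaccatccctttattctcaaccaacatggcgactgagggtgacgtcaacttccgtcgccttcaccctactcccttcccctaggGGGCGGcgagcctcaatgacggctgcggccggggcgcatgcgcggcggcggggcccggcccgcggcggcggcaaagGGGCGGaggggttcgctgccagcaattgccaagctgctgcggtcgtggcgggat
UNKL: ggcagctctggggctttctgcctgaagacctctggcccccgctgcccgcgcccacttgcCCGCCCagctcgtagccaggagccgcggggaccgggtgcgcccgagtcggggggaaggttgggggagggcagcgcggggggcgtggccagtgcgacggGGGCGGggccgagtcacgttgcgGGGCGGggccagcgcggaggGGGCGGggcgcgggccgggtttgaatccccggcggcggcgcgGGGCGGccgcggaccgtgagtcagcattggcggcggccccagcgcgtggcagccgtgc
CES2: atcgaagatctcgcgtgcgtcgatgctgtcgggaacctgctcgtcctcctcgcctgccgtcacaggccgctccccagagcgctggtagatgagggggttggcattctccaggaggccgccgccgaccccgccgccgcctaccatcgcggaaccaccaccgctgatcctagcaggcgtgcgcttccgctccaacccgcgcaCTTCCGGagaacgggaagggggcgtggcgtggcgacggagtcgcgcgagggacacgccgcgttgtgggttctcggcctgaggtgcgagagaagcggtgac

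The *UNKL* promoter held 5 GC boxes, those of *BRD7* and *N4BP1* 3 each, that of *ZNF688* 2 and an ETS core, that of *RABEP2* 1 and 2 ETS cores, and that of *CES2* an ETS core and 0 GC boxes. Over the 822 promoters of chromosome 16 in the table, the GC box was found in 74.8% of the 318 promoters that a shared region overlapped, in 84.5% of 58 overlapped by regions of MP2_HDAC1_OE alone, in 85.4% of 41 overlapped by regions of MP2_NTC alone and in 53.7% of 402 with no region, against 56.3% of all promoters. The ETS core stood in 31.1%, 25.9%, 19.5% and 8.96% of the same promoters, against 12.8% of all. Promoters with a region of any class therefore held both motifs more often than promoters without one, and they were also richer in G and C (median 67.3%, 70.2% and 70.7% for the 3 classes, 63.5% with no region and 62.3% for all). The part of base composition in the motif shares was not tested.

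Of the 751 regions, 212 (28.2%, interval 25.1 to 31.6) were unique to MP2_HDAC1_OE, which means that all their peaks came from that list, against 28.6% of all regions of the genome. A further 141 (18.8%, 16.1 to 21.7) were unique to MP2_NTC, against 20.7% of all regions, and 398 (53.0%, 49.4 to 56.5) were shared. Chromosome 16 as a whole stood close to the genome in each class. Its share unique to MP2_HDAC1_OE was the 15th highest of 23 chromosomes, its share unique to MP2_NTC the 18th and its shared share the 6th.

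The unique regions were the weaker ones. Those unique to MP2_HDAC1_OE had a median percentile of 41.1, against 75.5 in the same list for shared regions, and those unique to MP2_NTC had 36.9 against 71.2. They were also narrower, with a median of 820 bp against 1047 bp for shared regions, and 820 bp is the width that 57.3% of the chromosome 16 peaks of MP2_HDAC1_OE had. A shared region joins peaks of both lists, so the merging itself tends to make it wider, and the widths are no finding about the mark. A unique region need not lie far from a peak of the other line: 44 of the 212 (20.8%) and 32 of the 141 (22.7%) were within 500 bp of one, against 19.4% and 21.5% over all chromosomes. With peaks joined across gaps of up to 500 bp, 165 of the 212 and 106 of the 141 were still unique.

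Chromosome 16 regions lay at genes more often than those of other chromosomes. A region counted as at a gene when it overlapped 2 kb outside to 1 kb inside its start, or either end where the strand was not given. Of the 751 regions, 554 (73.8%, 70.5 to 76.8) lay at a gene and 494 (65.8%) at a protein-coding gene, against 65.5% and 57.6% of the 17927 regions of other chromosomes. The share at a gene was the 3rd highest of 23 chromosomes. Of its 854 protein-coding genes, 473 (55.4%) had a region, against 48.8% of all protein-coding genes. A shared region lay at 359 of them, regions unique to MP2_HDAC1_OE alone at 58 (6.79%, against 6.3% of all), regions unique to MP2_NTC alone at 45 (5.27%, against 5.26% of all), and unique regions of both lines with none shared at 11.

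By arm, the balance of unique regions was as follows. On 16p, 77 of 332 regions (23.2%, 19.0 to 28.0) were unique to MP2_HDAC1_OE and 68 (20.5%) to MP2_NTC, and on 16q 135 of 419 (32.2%, 27.9 to 36.8) and 73 (17.4%). Regions at coding genes made up 74.1% of 16p and 59.2% of 16q. Among regions at coding genes 19.1% on 16p and 22.6% on 16q were unique to MP2_HDAC1_OE, and among regions away from them 34.9% and 46.2%. Over all chromosomes the shares were 20.0% at coding genes and 40.4% away from them, and at coding genes the intervals of the arms overlapped (14.7 to 24.5 and 17.8 to 28.2). Unique MP2_NTC regions made up 17.5% of those at coding genes on 16p and 9.68% on 16q, against 16.9% over all chromosomes. In genes, 34 of 480 on 16p (7.08%) and 11 of 374 on 16q (2.94%) had regions of MP2_NTC alone. The arms include the windows at 30 to 40 Mb and 50 to 60 Mb, which were selected on these counts. Without them, 66 of 250 regions on 16p (26.4%, 21.3 to 32.2) and 104 of 341 on 16q (30.5%, 25.9 to 35.6) were unique to MP2_HDAC1_OE, and 19.2% and 19.1% to MP2_NTC, so that the arms were closer in the former and alike in the latter.

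**Figure D1:**
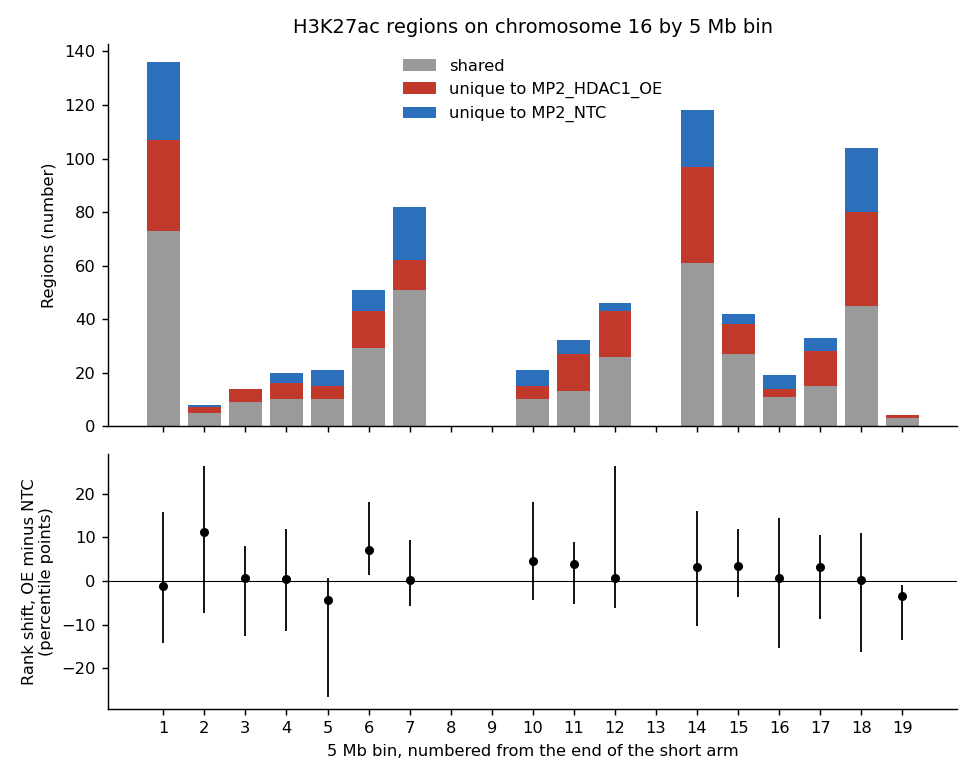
H3K27ac regions of chromosome 16 in 19 bins of 5 Mb, numbered from the end of the short arm. Upper panel, number of regions, with shared, unique to MP2_HDAC1_OE and unique to MP2_NTC stacked; lower panel, median rank shift of shared regions in percentile points, with lines from the first to the third quartile. Bin 1 holds 136 regions, bins 8, 9 and 13 hold 0, unique MP2_NTC regions outnumber those of MP2_HDAC1_OE in bins 5, 7, 10 and 16, and every quartile range but those of bins 6 and 19 crosses 0.

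By 5 Mb bin, the regions gathered in a few places. The first 5 Mb of the short arm held 136 regions over 197 protein-coding genes, the bin from 65 to 70 Mb held 118, the bin from 85 to 90 Mb 104 and the bin from 30 to 35 Mb 82. No region lay in the bins from 35 to 45 Mb or from 60 to 65 Mb. The longest stretch without a region ran for 14.7 Mb across the centromere (chr16:31874915-46612109) and held 10 protein-coding genes, most of them of the TP53TG3 family. It includes the centromere gap, and how well reads could be placed in this stretch was not examined. The next stretch ran for 7.65 Mb (chr16:58734896-66381071), and its 2 protein-coding genes, *CDH8* and *CDH11*, encode cadherins. Stretches of 3.81 Mb, with *WWOX* and *MAF*, and of 3.52 Mb, with *RBFOX1*, were likewise without a region in either line.

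Unique MP2_NTC regions outnumbered those of MP2_HDAC1_OE in 4 bins, by 20 to 11 at 30 to 35 Mb, by 6 to 5 at 20 to 25 Mb, by 6 to 5 at 45 to 50 Mb and by 5 to 3 at 75 to 80 Mb. In the other bins with regions MP2_HDAC1_OE led, by 14 to 5 at 50 to 55 Mb, 17 to 3 at 55 to 60 Mb, 36 to 21 at 65 to 70 Mb and 13 to 5 at 80 to 85 Mb. The gene-rich ends of the arms were closer to even, with 34 and 29 in the first 5 Mb and 35 and 24 at 85 to 90 Mb. A lead of 6 to 5 is within counting error.

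The stretch from 30 to 40 Mb on the short arm and the stretch from 50 to 60 Mb on the long arm were selected on their counts of unique regions, in opposite balance, so the contrast is given as a description. At 30 to 40 Mb, 11 of 82 regions (13.4%, 7.66 to 22.4) were unique to MP2_HDAC1_OE and 20 (24.4%, 16.4 to 34.7) to MP2_NTC, a ratio of 0.55. At 50 to 60 Mb, 31 of 78 regions (39.7%, 29.6 to 50.8) were unique to MP2_HDAC1_OE and 8 (10.3%, 5.29 to 19.0) to MP2_NTC, a ratio of 3.88. The rest of the chromosome lay between them, with 28.8% and 19.1% of 591 regions. Shared regions made up 62.2% and 50% of the windows.

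**Figure D2:**
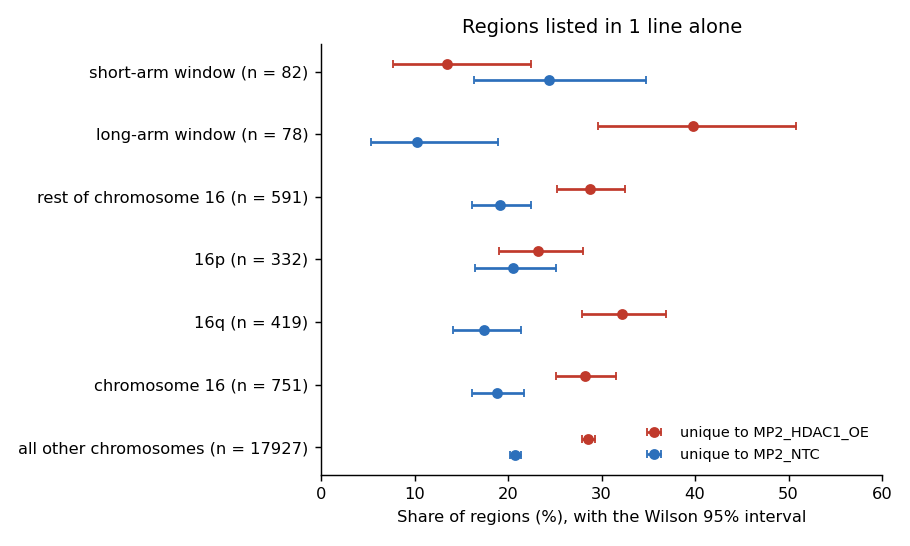
Share of H3K27ac regions that were unique to MP2_HDAC1_OE or unique to MP2_NTC, in percent, with bars for the Wilson 95% interval (counting error alone), in the short-arm window (30 to 40 Mb), the long-arm window (50 to 60 Mb), the rest of chromosome 16, each arm, the chromosome and all other chromosomes. The order of the lines turns around between the windows, 13.4% against 24.4% and 39.7% against 10.3%, and the whole chromosome lies next to the other chromosomes.

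The share of regions at coding genes was alike in the windows, 65.9% and 66.7%, and the shares differed in the same direction at and away from genes. At coding genes, 4 of 54 (7.41%) and 16 of 52 (30.8%) were unique to MP2_HDAC1_OE, and 16.7% and 5.77% unique to MP2_NTC. Away from them the shares were 25% and 57.7% for MP2_HDAC1_OE and 39.3% and 19.2% for MP2_NTC. Only for MP2_HDAC1_OE at coding genes were the intervals of the windows apart (2.92 to 17.6 and 19.9 to 44.3). In the other splits they overlapped. These splits are parts of the counts on which the windows were selected. Their common direction and the intervals that lie apart are therefore no test of a difference. Over all chromosomes, 20.0% and 16.9% of regions at coding genes were unique to MP2_HDAC1_OE and to MP2_NTC, and 40.4% and 25.9% of those away from them, so the MP2_NTC share at coding genes at 30 to 40 Mb was that of the genome. The windows differed in spacing. At 30 to 40 Mb the median unique MP2_HDAC1_OE region lay 1165 bp from the nearest MP2_NTC peak, and at 50 to 60 Mb 47116 bp. Within 500 bp of a peak of the other line were 4 of 11 and 8 of 20 unique regions in the first window, and 1 of 31 and 1 of 8 in the second. With gaps of up to 500 bp closed, the shares unique to MP2_HDAC1_OE were 10.4% and 40% and those unique to MP2_NTC 16.4% and 10%, so the MP2_HDAC1_OE contrast kept its size and the MP2_NTC contrast was smaller. In peaks, the lists held 124 (MP2_HDAC1_OE) and 135 (MP2_NTC) at 30 to 40 Mb, and 110 and 80 at 50 to 60 Mb.

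In protein-coding genes, 12 of 83 at 50 to 60 Mb (14.5%, 8.47 to 23.6, against 6.3% of all) had regions of MP2_HDAC1_OE alone and 2 had regions of MP2_NTC alone. At 30 to 40 Mb, the counts were 2 and 4 of 82. A shared region lay at 30 of 83 and 42 of 82 genes. These counts follow the unique regions on which the windows were selected.

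No region of the short-arm window lay beyond 31.9 Mb, and its regions fell in a dense block with many zinc finger and chromatin genes. It held 3 of the 5 strongest shared regions of the chromosome. The region at *ZNF689*, a KRAB zinc finger gene, had signals of 173 in MP2_HDAC1_OE and 204 in MP2_NTC, at percentile 99.98 in both lists (chr16:30609656-30610477). The region just before it on the chromosome, at *ZNF688*, had 133 and 148, at percentiles 99.5 and 99.3 (chr16:30571124-30572061). The third, in the body of *RNF40*, a ubiquitin ligase for histone H2B, had 139 in both lists, at 99.7 and 99.0. These regions took the top ranks in both lines.

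Among the 11 regions unique to MP2_HDAC1_OE here, the strongest lay at *PRR14*, whose protein ties heterochromatin to the nuclear lamina, with a signal of 90.6 at percentile 93.5 (chr16:30650800-30651545). An MP2_NTC region with a signal of 16.1 lay 430 bp away. Among the 20 unique to MP2_NTC, the strongest lay 4847 bp from the start of *ZNF48*, with a signal of 101 at percentile 93.8 (chr16:30400267-30401344) and no MP2_HDAC1_OE peak within 4202 bp. The next was in the body of *PRSS36*, a serine protease gene, at percentile 85.6. At *KAT8*, the acetyltransferase of lysine 16 on histone H4, each line had a region of its own, an MP2_NTC region with a signal of 72.5 (percentile 79.3) and an MP2_HDAC1_OE region with a signal of 58.6 (percentile 69.9), and a gap of 12 bp separated them. *KAT8* thus counts as unique in both lines although its regions nearly touch.

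The block from *SPN* to *CORO1A* runs into this window. A region lay at 21 of its 27 genes, against 55.4% of all coding genes of the chromosome. The region was shared at 16 genes, unique to MP2_HDAC1_OE at *MVP*, the major vault protein gene (percentile 45.0), and *C16orf92* (66.8), and unique to MP2_NTC at *DOC2A*, a calcium sensor of synaptic release (30.6), *TBX6*, a T-box factor of somite development (37.7), and *CORO1A*, an actin-binding coronin (77.3). At *CORO1A* the MP2_NTC region covered the gene start (chr16:30182804-30183825, signal 70.2), and a region unique to MP2_HDAC1_OE with a signal of 38.4 lay inside the gene, 1165 bp on. The strongest shared regions of the block, at *MAZ*, *CDIPT* and *HIRIP3* with *INO80E*, ranked at percentile 96.5 or above in both lists. The shared regions at *TMEM219* and *TAOK2* ranked higher in MP2_HDAC1_OE, at 66.2 against 26.2 and 93.0 against 72.9.

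In the long-arm window, the metallothionein genes had regions at 4 of 11 members, against 55.4% of all coding genes of the chromosome. All MP2_NTC peaks in the cluster lay around *MT2A* and upstream of *MT1E*, and MP2_HDAC1_OE also had regions at *MT1A* and *MT1X*. Upstream of *MT2A* the shared region (chr16:56607637-56608420) held 2 MP2_HDAC1_OE peaks with signals of 71.7 and 46.2 and 3 MP2_NTC peaks with signals of 163, 123 and 27.9. At its best peak it ranked at 83.2 in MP2_HDAC1_OE and 99.7 in MP2_NTC, so the strongest region of the cluster in MP2_NTC ranked lower in MP2_HDAC1_OE. It overlapped 87 of the 300 bases of the *MT2A* promoter printed above.

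Downstream of *MT2A* the order was the opposite. The region 2061 bp from the *MT2A* start (chr16:56610645-56611899) had a signal of 74.7 in MP2_HDAC1_OE, percentile 85.4, and 34.9 in MP2_NTC, percentile 23.7. This shift of 61.7 points toward MP2_HDAC1_OE was the largest on the chromosome. Here the strongest peaks of the lines overlapped by 179 bp, 21.8% of the longer, and their summits lay 2.29 and 2.70 kb from the *MT2A* start, so the lines differ in the place of the peak as well as in its rank. The region between them, 754 bp from the *MT2A* start, had 43.1 and 26.9, percentiles 43.4 and 15.6, and the peaks shared only 37 bp.

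At *MT1E* the shared region ranked at 52.3 in MP2_HDAC1_OE and 66.0 in MP2_NTC. *MT1X* had 2 regions of MP2_HDAC1_OE alone (chr16:56681974-56682255, signal 65.2, percentile 77.5, and chr16:56682312-56683131, signal 53.4, percentile 62.4), which together overlapped 244 of the 300 bases of the printed promoter. *MT1A* had 1 (signal 53.0, percentile 61.9). The nearest MP2_NTC peak was 46240 bp from the *MT1X* start region and 12509 bp from that of *MT1A*. *MT1B*, *MT1F*, *MT1G*, *MT1H*, *MT1M*, *MT3* and *MT4* had no region in either list.

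**Figure D3:**
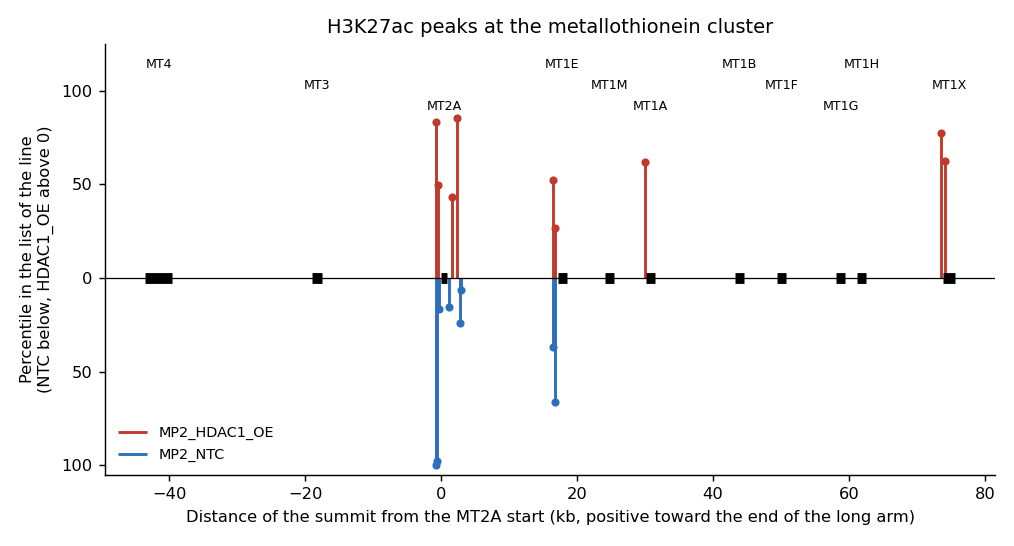
H3K27ac peaks at the metallothionein cluster, as percentile of each peak within its list (MP2_HDAC1_OE above 0, MP2_NTC below) against the distance of the summit from the *MT2A* start in kb; black blocks are the 11 genes. MP2_NTC peaks stand at *MT2A* and *MT1E*, with the tallest at percentile 99.7, and MP2_HDAC1_OE peaks stand there and at *MT1A* and *MT1X*.

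The Iroquois genes encode homeobox factors of early patterning. *IRX3* had 2 shared regions, at percentiles 93.2 and 79.2 (MP2_HDAC1_OE and MP2_NTC) and at 86.6 and 69.0. *IRX5* had 2 shared regions, at 85.0 and 71.4 and at 80.6 and 71.5, and a region unique to MP2_HDAC1_OE with a signal of 67.0, percentile 79.2, which ended 216 bp from an MP2_NTC peak. All 4 shared regions ranked higher in MP2_HDAC1_OE, each by less than 20 points. *IRX6*, the third gene of the cluster, had no region. Closer to the centromere, *FTO* and *RPGRIP1L*, which share a promoter stretch, had 2 regions of MP2_HDAC1_OE alone, at percentiles 47.4 and 29.4, with no MP2_NTC peak within 267587 bp.

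*BRD7*, a bromodomain subunit of the PBAF remodeler, and *CYLD*, a deubiquitinase that restrains NF-kB, lay in a run of 4 consecutive regions unique to MP2_HDAC1_OE that spanned 470.5 kb. The *BRD7* region (chr16:50368140-50369159) had a signal of 65.1, percentile 77.5, and overlapped 221 of the 300 promoter bases printed above. The *CYLD* region had 44.7, percentile 46.5. The nearest MP2_NTC peaks were 100854 bp and 403377 bp away, so neither gene had a peak of MP2_NTC in its neighborhood.

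*CHD9*, a chromodomain helicase with several starts, had regions of every class. Its first start had 2 regions of MP2_HDAC1_OE alone, at percentiles 65.5 and 72.0, with no MP2_NTC peak within 74601 bp. The start farthest along the gene had the strongest unique MP2_NTC region of the chromosome (chr16:53207990-53208383, signal 127, percentile 98.2), which lay 59 bp from an MP2_HDAC1_OE peak, and a shared region right after it at 92.3 and 94.8. Another shared region, at a start between them, ranked at 82.1 and 90.9. The gene therefore counts as shared, and the lines differed at its first start.

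Besides *MT1A*, *MT1X*, *FTO*, *RPGRIP1L*, *BRD7* and *CYLD*, the window's genes with regions of MP2_HDAC1_OE alone were *CHD9NB*, *NLRC5*, *AKTIP*, *CNEP1R1*, *MMP15* and *NDRG4*. *CHD9NB* lies next to *CHD9* and has only the regions at the first *CHD9* start. The percentile was 26.7 at an end of *NLRC5*, 84.6 at *AKTIP* (the strongest such region of the window) and 65.1 at *CNEP1R1*. It was 56.1 at *MMP15*, a membrane-anchored metalloprotease, and 20.5 at *NDRG4*. *CPNE2* (57.4) and *DOK4* (38.6) had regions of MP2_NTC alone. *CCL17*, a chemokine, had a shared region with signals of 57.2 and 40.1, at percentiles 68.1 and 32.5, and its neighbors *CCL22* and *CX3CL1* had none. *MMP2* and *MMP25*, the other metalloprotease genes of the list, had no region.

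The window also held regions that ranked higher in MP2_NTC. At an end of *CNOT1*, the scaffold of the CCR4-NOT deadenylase, a region had signals of 43.9 and 106, at percentiles 45.0 and 95.2 (chr16:58629251-58629893). Its strongest peaks overlapped by 96.0% of the longer. Right beside it, a region with signals of 113 and 165 ranked at 98.2 and 99.7, so only the former was far apart. *ADCY7*, an adenylate cyclase, ranked at 29.4 and 71.0.

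For the 398 shared regions of the chromosome, the rank shift, MP2_HDAC1_OE percentile minus MP2_NTC percentile, had a median of 0.96 points, with quartiles of -10.3 and 14.0 and a range from -58.3 to 61.7. It was positive in 223 and negative in 175. A shift of 20 points or more toward MP2_HDAC1_OE was found in 62 (15.6%, against 19.7% of all shared regions) and toward MP2_NTC in 54 (13.6%, against 14.7% of all). The share of large shifts toward MP2_HDAC1_OE was thus below that of the genome, and the median shift was the 15th highest of 23 chromosomes. At the threshold, *TAOK2* (20.1) and *WWP2* (-20.1) were just inside, and *FBRS* (19.9) and a region in *CENPT* (-19.9) just outside.

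In the shared regions of the windows, the shifts were as follows. The windows were chosen with earlier results of these data known, so the shifts are no independent check of the contrast. At 30 to 40 Mb the median shift was 0.23 points, with 7 of 51 shifted by 20 or more toward MP2_HDAC1_OE and 4 toward MP2_NTC. At 50 to 60 Mb it was 2.28 points, with 9 and 5 of 39. The quartiles, -5.67 to 9.48 and -6.24 to 17.6, overlapped over most of their range. Among regions that ranked alike the strongest peaks of the lines mostly overlapped. They did so by at least 50% of the longer peak in 73.0% of the 282 shared regions with a shift under 20 points and in 54.3% of the 116 with a larger shift, against 67.6% and 54.1% over all chromosomes. Over those regions alone, the median shift was 0.52 points on the chromosome, -1.87 at 30 to 40 Mb and 0.90 at 50 to 60 Mb.

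**Figure D4:**
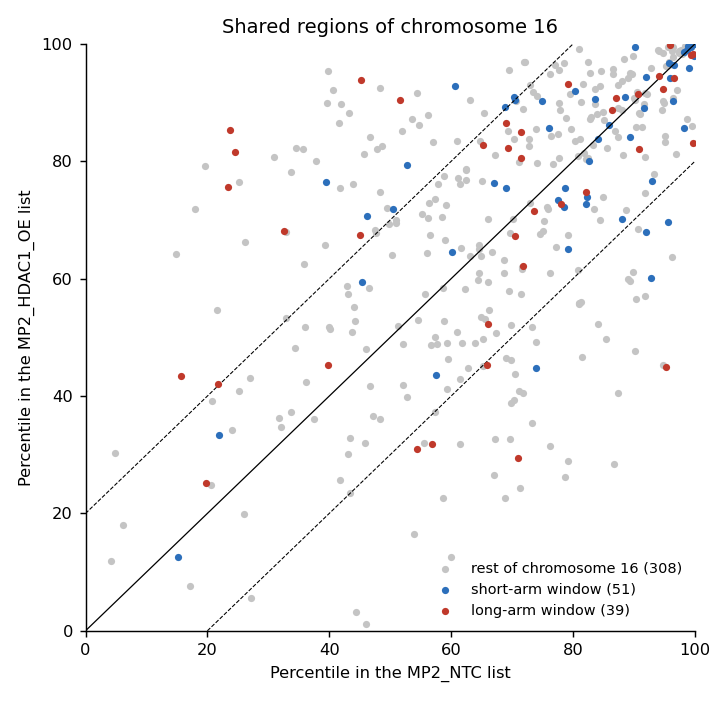
Percentile of the 398 shared H3K27ac regions of chromosome 16 in the MP2_HDAC1_OE list (vertical axis) against the MP2_NTC list (horizontal axis), with the short-arm window (30 to 40 Mb, 51 regions), the long-arm window (50 to 60 Mb, 39 regions) and the rest (308) in separate colors; the solid line marks equal rank and the dashed lines shifts of 20 points. Most regions lie within the dashed lines, 62 lie above them and 54 below, and the strongest regions gather at the upper right corner.

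Besides the region by *MT2A*, the largest shifts toward MP2_HDAC1_OE were found at *CES2*, a carboxylesterase that activates irinotecan, with *CIAO2B* (79.3 against 19.6), in *NLRC5*, the transactivator of MHC class I genes (81.7 against 24.6), at *DHX38*, a splicing helicase, with *TXNL4B* (95.4 against 39.8) and at *UQCC4* (71.9 against 17.9). Of these 5 regions, only that in *NLRC5* had strongest peaks that overlapped by at least 50% of the longer (72.2%). At *CES2* (chr16:66933838-66934990, signals 67.1 and 31.0) the overlap was 27.4%. The summits of the strongest peaks lay 413 bp apart near *MT2A*, 477 bp at *CES2* and 228 bp in *NLRC5*, but 25 bp at *DHX38* and 23 bp at *UQCC4*, where the stronger MP2_HDAC1_OE peak was the narrower.

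By size, the shifts toward MP2_NTC were led by *UNKL* (28.5 against 86.7), *SNTB2*, a syntrophin (26.3 against 78.7), *CNOT1*, *COX4I1*, a subunit of cytochrome c oxidase, with *EMC8* (29.0 against 79.2) and *TUBB3*, a beta-tubulin of neurons (45.3 against 94.7). At *UNKL* (chr16:1378758-1379804) the signals were 35.7 and 83.4, and the region overlapped 202 of the 300 promoter bases printed above. The strongest peaks overlapped by at least 50% of the longer in 4 of these 5 regions, *SNTB2* being the exception at 40.6%.

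The strongest unique regions ranked at percentile 86.8 or above in their lists. Those of MP2_HDAC1_OE lay in *CFDP1* near *BCAR1*, an adaptor of integrin signaling (percentile 95.1, signal 95.6), at *RABEP2*, a Rab effector of endosomes (94.6), *SPATA2L* (93.7), *PRR14* (93.5) and *NDUFAB1*, the mitochondrial acyl carrier protein (86.8). The *CFDP1* region was 220 bp wide and 217 bp from an MP2_NTC peak. The nearest MP2_NTC peak was 18520 bp from the *RABEP2* region (chr16:28925280-28926521, signal 93.5) and 44383 bp from that of *NDUFAB1*. For MP2_NTC, *CHD9* was followed by *N4BP1*, a suppressor of NF-kB signaling (95.6, signal 108, chr16:48610234-48610867), the region near *ZNF48* (93.8), *DNAJA3*, a mitochondrial co-chaperone (90.3), and *WDR59*, a GATOR2 subunit (90.0). The nearest MP2_HDAC1_OE peak was 224235 bp from the *N4BP1* region and 8456 bp from that of *DNAJA3*, but 86 bp from that of *WDR59*. *BANP*, *DYNC1LI2* and *ZFP1* had shared regions at percentile 98.4 or above in both lists.

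Of 6 runs of at least 4 consecutive regions unique to the same line, all 6 were of MP2_HDAC1_OE. Unique regions of that line were also the more numerous, 212 against 141, which makes such runs likelier in it. Runs on other chromosomes were not counted. They lay at *RABEP2* (4 regions over 53.6 kb), from *ADCY7* to *CYLD* (4 over 470.5 kb), up to *CHD9* (4 over 1295 kb), in *CYB5B* (5 over 24.1 kb, percentiles 5.28 to 39.4), between *KLHDC4* and *SLC7A5* (4 over 46.0 kb, up to 83.5) and from *MVD* to *PIEZO1* (4 over 75.6 kb, up to 49.2). Of the 6, 2 were in the long-arm window and none in the short-arm window, which follows the unique counts on which the windows were selected.

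All 11 chromatin regulators of the list had a region, 9 of them shared. Of all coding genes of the chromosome 55.4% had a region and 42.0% a shared one. *CREBBP*, the acetyltransferase that places H3K27ac, had signals of 64.5 and 57.1, at percentiles 76.8 and 62.4. *SRCAP*, *SETD1A*, *INO80E* and *BANP* ranked at percentile 95.8 or above in both lists, and *CTCF* at 90.0 and 94.9. *ANKRD11* (91.1 against 74.0) and the stronger of the 2 regions at *CBFB*, a partner of RUNX factors (92.2 against 40.7), ranked higher in MP2_HDAC1_OE. The other *CBFB* region ranked at 41.9 and 52.1, and *BRD7* and *KAT8* were the members without a shared region.

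All 6 DNA repair genes of the list had a region, against 55.4% of all coding genes of the chromosome. Repair genes outside the list were not counted, and of these *SLX1A*, *SLX1B* and *RMI2* had no region. In the list, the region was shared at *ERCC4* (84.4 and 76.3), *PALB2* (36.1 and 37.5) and *FANCA* (90.4 and 90.2), which ranked alike in the lines to within 10 points. It was unique to MP2_HDAC1_OE at *NTHL1*, a glycosylase of base excision repair (58.6), and *SLX4*, a nuclease scaffold (34.6), and unique to MP2_NTC at *USP7*, a deubiquitinase of the p53 pathway (35.3). Of the forkhead genes, *FOXF1* had a shared region (48.6 and 56.7), *FOXL1* a region of MP2_NTC alone (35.5) and *FOXC2* none.

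Among the listed alpha-globin, pancreatic secretory and cadherin genes, a region was rare in either line. None of the 5 alpha-globin genes and none of the 4 pancreatic secretory genes (*CTRB1*, *CTRB2*, *CTRL* and *GP2*) had a region. The share over all coding genes of the chromosome was 55.4%. Of the 8 cadherin genes, *CDH5* alone had one (67.9 and 47.7), and it lay 1637 bp beyond an end of the gene. *CDH1*, which encodes E-cadherin, had none. No peak in these lists does not show that the mark is absent, since the depth is unknown.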

How the data were processed

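H3K27ac ChIP-sequencing was run in MP2_HDAC1_OE and MP2_NTC as 75 bp single-end reads with ENCODE pipelines. The submitters' processing notes name BWA 0.7.12, Picard 1.88 and the build hg38; the peak caller is not given in the sources used here. The authors deposited a signal value per peak, pooled over 2 samples, and its scaling between lists is not stated, so percentiles were computed within each list. Summits on chromosome 16 fell within 1 kb of a GRCh38 coding gene's start or end in 66.9% (MP2_HDAC1_OE) and 70.8% (MP2_NTC) of cases, and in 6.44% and 5.93% once moved by 100 kb.

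Peaks were merged where they shared 1 bp. Starts with strand came from RefSeq promoters (GRCh38.p14) for 611 of 854 coding genes, otherwise either end was used. The arms were split at 37 Mb, inside the centromere gap. Named genes were members of lists, the 5 strongest regions per class, the 5 largest shifts each way, the 3 strongest per class and the largest shifts in each window, and runs of 4 or more unique regions. Other genes of the windows, and *BANP*, *ADCY7* and gap genes, were named after their values were seen. Regions, windows and lists were chosen with earlier results of these data known. No test was possible with 1 list per line. Alternatives covered gaps, overlap, stricter and equal peak numbers, other percentiles and gene windows. Methods were tested on simulated data. Tools were Python 3.11.15, pandas 2.3.3, numpy 2.4.6, matplotlib 3.10.9 and scipy 1.17.1. Read coverage was not used here.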

Additional observations from a re-analysis of the deposited data

How the results depend on the processing

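Of 66 alternative values for 13 results, 55 moved by less than their counting interval or 1.5 times, 11 moved further and 0 changed direction by more than their interval; 17 of the 66 were chosen after seeing the data. With single peaks that had to overlap by 50% of both, 525 peaks were unique to MP2_HDAC1_OE, 414 to MP2_NTC and 516 shared. Gaps of up to 500 bp brought the 16q share unique to MP2_HDAC1_OE to 27.1%. The share of regions at a gene was 77.3% for the 75% of peaks with the highest signal and 65.8% for protein-coding genes alone. At coding genes alone, the share unique to MP2_HDAC1_OE at 30 to 40 Mb was 7.41%. Away from coding genes, the shares unique to MP2_HDAC1_OE were 25% at 30 to 40 Mb and 57.7% at 50 to 60 Mb, those unique to MP2_NTC 39.3% and 19.2%, and the median shift at 30 to 40 Mb was 7.98 points. The sign of the small median shifts was not stable. At 50 to 60 Mb it was -1.22 points with the 75% of peaks of highest signal, and at 30 to 40 Mb -0.01 with percentiles among shared regions, -0.12 at coding genes alone and -1.87 where the strongest peaks overlapped by 50%. The cause of these moves was not tested. No paired analysis was possible because the authors pooled the samples of a line into 1 list, and for the same reason no replicate could be left out. The lists hold no read counts, so what depth limits is unknown.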
